A study of Mus musculus with 126 samples.

Results

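The Bcl2 family decides whether a cell opens its mitochondrial outer membrane and dies by apoptosis, and 10 of its genes were followed here in mouse embryonic stem cells. They were taken by gene symbol from a count table of 23420 genes, and all 10 were found and passed the filter on low counts. They comprise 3 survival genes (Bcl2, Bcl2l1 and Mcl1), 2 effector genes (Bax and Bak1) and 5 BH3-only genes (Bbc3, Pmaip1, Bcl2l11, Bmf and Bid). The RNA-seq libraries are 8 of the 126 samples of a study on how DNA methylation and histone acetylation bear on transcription factor binding, and the other samples were not analysed here. The cells were of the J1 strain, either wild type or Dnmt1-/-, Dnmt3a-/-, Dnmt3b-/- (TKO), which lack the enzymes that write and copy DNA methylation. Each genotype was given Trichostatin A (TSA), an inhibitor of histone deacetylases, at a labelled 5 ng/µl, or the solvent DMSO at 0.0033%, in each case for 36 h. The labelled TSA concentration is far above those usual in cell culture, so its unit may be a slip, which the files cannot settle. All groups were cultured on gelatin in medium with serum and leukaemia inhibitory factor. Each of the 4 groups held 2 libraries, called biological replicates in the study's design without saying what separates them, so the p-values measure only the spread between these libraries. Whether the TKO line is a single clone is not given in the sources used here.

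Survival proteins such as BCL2, BCL-XL (from Bcl2l1) and MCL1 hold the effectors BAX and BAK in check. BH3-only proteins sense stress and either block the survival proteins or activate the effectors, whose pores release cytochrome c and start the caspases. MCL1 is short-lived and needed by early embryonic cells, and much of the control of the family lies in protein stability, cleavage and location, which RNA levels do not measure.

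Library totals ran from 13280631 to 15542527 counts, and levels are given as CPM, counts relative to the TMM-scaled library size. The targeted genes followed the labels, with Dnmt1, Dnmt3a and Dnmt3b lower in each TKO library than in each wild type library. With DMSO, Dnmt3b was at 596 and 588 CPM in wild type against 46.2 and 43.7 in TKO. Dnmt3a was at 185 and 237 against 25.9 and 27.0. The drop was smaller for Dnmt1, at 464 and 428 against 134.5 and 125.6. The 10 pluripotency markers listed summed to between 4429 and 5307 CPM in DMSO libraries and between 2398 and 2722 in TSA libraries. Of these 10, 8 fell with TSA in wild type and 7 in TKO, beside 25.9% and 27.9% of all genes tested. When scaled by library totals, 6 and 6 fell, beside 2433 and 3267 of 15822 genes. The 6 trophoblast markers summed to between 41.1 and 59.2 CPM in DMSO and between 199 and 252 in TSA, and 6 rose in wild type and 5 in TKO, beside 27.0% and 30.8% of all genes. The 12 fibroblast and mesenchymal markers had uneven sums between the wild type replicates. These were 469 and 242 CPM with DMSO and 513 and 306 with TSA. Most of each sum was Tagln, at 351 and 153 CPM with DMSO and 405 and 190 with TSA. The other markers went either way, with Col1a1, Col1a2 and Thy1 higher in replicate 2. In TKO the sums were 48.0 and 31.9 CPM with DMSO and 64.3 and 73.4 with TSA. There Dcn was at 0 in both TSA libraries. Of the 11 tested, 5 rose and 2 fell with TSA in wild type, and 9 rose and 0 fell in TKO. The 8 endoderm markers summed to 14.6 and 16.8 CPM with DMSO and 24.6 and 27.9 with TSA in wild type, and to 37.8 and 39.7 and 49.7 and 60.5 in TKO; 2 rose and 0 fell with TSA in wild type, and 3 rose and 0 fell in TKO. The 6 neural markers summed to between 208 and 266 CPM in DMSO and between 99.7 and 130.1 in TSA, and 1 rose and 3 fell in each genotype. Most of each sum was Tubb3, at 159.9 to 194 CPM in DMSO libraries and 52.2 to 82.0 in TSA libraries, and the gene that rose was Map2. In bulk RNA, fewer cells of a type and less RNA per cell cannot be told apart, and the part of these markers in the TSA results below was not tested.

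Bcl2l11, Bmf, Bax and Bak1 changed with TSA in both genotypes, as described below, and the 250 bases before their starts are printed to show where motifs of the transcription factors assayed in the study lie. The sequences are RefSeq's for GRCm38.p6, the assembly behind the build name mm10, and run 5′ to 3′ on the gene's strand. Capitals mark matches, on either strand, to GGGCGG (GC box, SP1), CACGTG (E-box, MAX), CCGGAAG (ETS site, GABPA), GCGCATG (core of the NRF1 site) or AAGATGG (core of the YY1 site), none of which contains another.
Bcl2l11, chr2:128125788-128126037, + strand: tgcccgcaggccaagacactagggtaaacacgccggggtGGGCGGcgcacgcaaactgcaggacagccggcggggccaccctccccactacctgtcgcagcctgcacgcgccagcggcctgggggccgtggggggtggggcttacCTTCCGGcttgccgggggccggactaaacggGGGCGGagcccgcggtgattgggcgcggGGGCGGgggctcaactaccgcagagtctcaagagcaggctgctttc
Bmf, chr2:118549687-118549936, - strand: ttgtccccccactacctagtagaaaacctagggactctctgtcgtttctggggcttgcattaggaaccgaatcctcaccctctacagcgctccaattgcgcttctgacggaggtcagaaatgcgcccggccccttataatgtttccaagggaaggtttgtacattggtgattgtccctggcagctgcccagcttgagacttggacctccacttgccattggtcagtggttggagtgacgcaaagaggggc
Bax, chr7:45466899-45467148, - strand: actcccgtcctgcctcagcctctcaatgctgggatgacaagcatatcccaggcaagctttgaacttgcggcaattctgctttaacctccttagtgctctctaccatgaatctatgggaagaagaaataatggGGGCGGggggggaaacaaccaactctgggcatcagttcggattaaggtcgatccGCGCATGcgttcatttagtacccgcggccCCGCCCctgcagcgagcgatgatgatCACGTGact
Bak1, chr17:27028628-27028877, - strand: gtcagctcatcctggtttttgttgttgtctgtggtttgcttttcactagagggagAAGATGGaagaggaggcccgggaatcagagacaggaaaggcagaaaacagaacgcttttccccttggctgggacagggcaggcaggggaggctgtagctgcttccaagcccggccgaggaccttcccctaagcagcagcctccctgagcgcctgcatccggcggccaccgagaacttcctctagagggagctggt

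Windows were matched for 9 members, each at the start nearest to that in the table (0 to 46 bases away), and for Pmaip1 none is shown. Of all 32851 windows of this length in the RefSeq table, 32.7% held the GC box, 6.02% the E-box, 6.91% the ETS site, 3.24% the NRF1 core and 4.49% the YY1 core. Bcl2l11 held 3 GC boxes and 1 ETS site, Bax 2 GC boxes with 1 E-box and 1 NRF1 core, Bak1 1 YY1 core, and Bmf none of the 5 motifs. Bcl2 held 7 GC boxes, Bbc3 5, Bid 3 and Mcl1 1 with 1 ETS site, while Bcl2l1 had no match. CpG dinucleotides, the sites of DNA methylation, numbered 24 in the Bcl2l11 window, 14 in that of Bax and 8 each in those of Bmf and Bak1, beside a median of 6 over all windows. The other members had 36 (Bcl2), 27 (Bbc3), 26 (Mcl1), 18 (Bid) and 12 (Bcl2l1). A match is a description of letters, and methylation and binding at these windows were not analysed here.

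**Figure D1:**
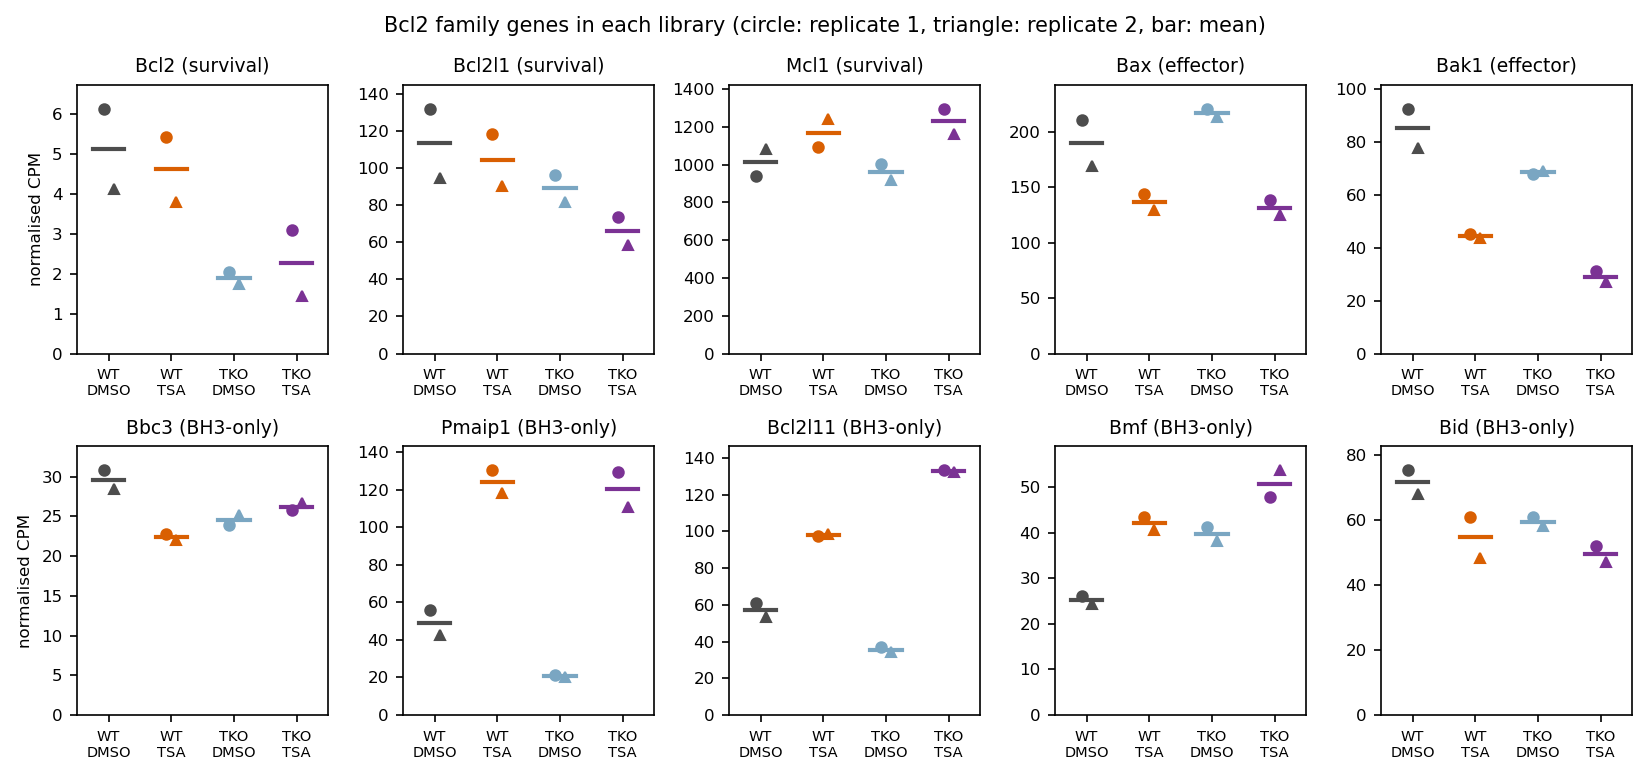
Normalised CPM (linear axes from 0) of the 10 genes in each of the 8 libraries, with a circle for replicate 1, a triangle for replicate 2 and a bar for the mean of the group. Pmaip1 and Bcl2l11 are high in the TSA libraries of both genotypes and lowest in TKO DMSO, while Bax and Bak1 are lower in TSA.

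Levels of different genes were compared per length of exon (RPKM, the CPM divided by kilobases of exon). Mcl1 was the most abundant member in every group, at 290.1 ± 28.4 and 334 ± 29.8 RPKM in wild type without and with TSA, and 275 ± 17.5 and 353 ± 26.5 in TKO (SD, n = 2). Bax came next in every group, at 219 ± 33.8, 157 ± 11.3, 249 ± 5.95 and 151 ± 10.9 RPKM in the same order (SD, n = 2). Bcl2, after which the family is named, was last everywhere, at 0.664 ± 0.183, 0.597 ± 0.149, 0.246 ± 0.0280 and 0.294 ± 0.152 RPKM (SD, n = 2), which rests on 23 to 89 counts per library. Among the genes in between, the order changed with TSA. Pmaip1 was at rank 6 with DMSO in wild type (18.5 ± 3.57 RPKM) and at rank 8 in TKO (7.83 ± 0.260), and at rank 3 in both TSA groups (46.8 ± 3.202 and 45.3 ± 4.92; SD, n = 2). Neighbours in the order whose libraries overlapped were Bcl2l1 with Bak1 and Bak1 with Bid in wild type under DMSO, and Pmaip1 with Bcl2l1 in wild type under TSA. In TKO under TSA they were Bcl2l1 with Bcl2l11, Bcl2l11 with Bid, and Bak1 with Bbc3.

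The first comparison asked what the deacetylase inhibitor does to survival and death genes where DNA methylation is present. In wild type, 3 BH3-only genes rose with TSA (Pmaip1, Bcl2l11 and Bmf), the other 2 fell (Bbc3 and Bid), and both effectors fell. None of the 3 survival genes among the members passed the test. Thus 7 of 10 members were called by edgeR's quasi-likelihood test at an adjusted p below 0.05, against 52.8% of the 15822 genes tested, of which 27.0% were called higher and 25.9% lower. A share of members near that of all genes is not a result about the family, and what follows describes direction and size gene by gene. The split of all calls rests on the scaling, with 4266 higher and 4092 lower by TMM, 5812 and 2433 by library totals alone, and 5365 and 2794 by the upper quartile. These scalings moved the median log2 fold change of all genes from 0.01 to 0.22 and 0.16. By TMM the median was 0.74 over the 5 BH3-only genes, -0.71 over the 2 effectors and -0.12 over the 3 survival genes.

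Among survival genes, Mcl1 was at 942 and 1082 CPM with DMSO and at 1092 and 1239 with TSA. Its TSA libraries lay above its DMSO libraries by a small margin, and the log2 fold change (0.20, 95% interval -0.03 to 0.44, edgeR adjusted p 0.125) did not pass the test. It did by library totals (0.41, edgeR adjusted p 0.00519) and by the upper quartile (0.35, edgeR adjusted p 0.0183). Bcl2l1 overlapped between the groups, at 132 and 94.6 CPM and 118 and 90.5 (-0.12, 95% interval -0.50 to 0.27, edgeR adjusted p 0.59). Bcl2 overlapped as well, at 6.14 and 4.13 CPM and 5.44 and 3.81 (-0.15, 95% interval -0.90 to 0.59, edgeR adjusted p 0.722). In both of these genes replicate 1 was above replicate 2 in each of the 4 groups. The summed mesenchymal markers, mostly Tagln in wild type, were so in both wild type groups and in TKO with DMSO. With TSA in TKO they were at 64.3 and 73.4 CPM, and their part was not tested. Intervals here are not adjusted for the number of genes.

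The effectors, on which survival and BH3-only proteins act, were lower with TSA. Bak1 was at 92.4 and 77.7 CPM in the DMSO libraries of wild type and at 45.3 and 43.6 in the TSA libraries, 1.92-fold lower (log2 fold change -0.94 ± 0.12 SE, edgeR adjusted p 9.66e-05). Bax was at 211 and 169 CPM and at 144 and 129.7, 1.39-fold lower (-0.48 ± 0.11 SE, edgeR adjusted p 0.00513). The libraries of the groups did not overlap for either gene. For 2 against 2 libraries of an unchanged gene, separation in either direction has a probability of 0.333. The share of all genes without overlap was not computed, so a lack of overlap, here and below, only describes the libraries. By library totals Bak1 was still called, and Bax was -0.27 with an edgeR adjusted p of 0.059.

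Pmaip1 encodes NOXA, a BH3-only protein that binds MCL1. It was at 55.9 and 42.5 CPM in wild type libraries with DMSO and at 130.3 and 118 with TSA. Both TSA libraries were above both DMSO libraries, by 2.52-fold (log2 fold change 1.34 ± 0.13 SE, edgeR adjusted p 3.64e-05). Bcl2l11 encodes BIM, which binds all the main survival proteins and can activate BAX and BAK. It rose from 61.0 and 53.6 CPM to 97.7 and 98.5, or 1.71-fold (0.77 ± 0.10 SE, edgeR adjusted p 0.00011). Bmf, whose protein is held on the cytoskeleton until released, rose from 26.1 and 24.4 CPM to 43.5 and 40.6, or 1.66-fold (0.74 ± 0.12 SE, edgeR adjusted p 0.00043). In none of these 3 genes did the DMSO and TSA libraries overlap.

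The other pair of BH3-only genes went the opposite way in wild type. Bbc3, which encodes PUMA and is a classical target of p53, was at 30.8 and 28.4 CPM with DMSO and 22.8 and 22.0 with TSA (log2 fold change -0.40 ± 0.12 SE, edgeR adjusted p 0.0155). Bid, which links death receptors to mitochondria after cleavage by caspase 8, was at 75.2 and 67.8 CPM and 60.9 and 48.3 (-0.39 ± 0.12 SE, edgeR adjusted p 0.0209). Neither gene's groups overlapped, but both calls rest on the scaling. By library totals the values were -0.20 for Bbc3 and -0.19 for Bid (edgeR adjusted p 0.197 and 0.212), and by the upper quartile -0.25 and -0.24 (edgeR adjusted p 0.0954 and 0.112). Both calls were also lost without wild type DMSO replicate 1 (edgeR adjusted p 0.0651 and 0.106) or wild type TSA replicate 2 (0.0914 and 0.206), and that of Bbc3 without wild type TSA replicate 1 (0.0544).

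With DNA methylation missing, in TKO, 3 BH3-only genes again rose with TSA (Pmaip1, Bcl2l11 and Bmf). Mcl1 rose too, both effectors fell, and the other 4 members did not pass the test. These 6 called members of 10 stand beside 58.7% of all genes tested, 30.8% higher and 27.9% lower. By TMM 4872 genes were higher and 4412 lower, and by library totals 5908 and 3267, which moved the median of all genes from 0.04 to 0.19. The median log2 fold change by TMM was 0.35 over the BH3-only genes, -0.98 over the effectors and 0.25 over the survival genes.

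Mcl1 rose 1.28-fold in TKO, from 1003 and 917 CPM to 1294 and 1164 (0.36 ± 0.11 SE, edgeR adjusted p 0.0133). That call was lost without TKO DMSO replicate 2 (edgeR adjusted p 0.112) and without TKO TSA replicate 1 (edgeR adjusted p 0.0867). Bcl2l1 was at 96.3 and 81.8 CPM with DMSO and 73.5 and 58.7 with TSA, not overlapping but just outside the test (-0.43, 95% interval -0.82 to -0.04, edgeR adjusted p 0.0562). DESeq2 called it (adjusted p 0.0382), as did edgeR with no filter on low counts (adjusted p 0.0173) and with the replicate number as a block (adjusted p 0.00129). The other scalings and robust fitting did not call it. Leaving out each library in turn, its log2 fold change ran from -0.61 to -0.28. Bcl2 was at 2.05 and 1.75 CPM and at 3.11 and 1.44, where 1 TSA library lay above and the other below both DMSO libraries (0.25, 95% interval -0.64 to 1.14, edgeR adjusted p 0.612).

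Bak1 fell from 68.0 and 68.8 CPM to 31.2 and 26.9 in TKO, by 2.36-fold (log2 fold change -1.24 ± 0.12 SE, edgeR adjusted p 1.27e-05). Bax fell from 220.5 and 213 CPM to 138 and 125, by 1.65-fold (-0.72 ± 0.11 SE, edgeR adjusted p 0.000302). Neither gene's groups overlapped, and each of the 8 fits that left out 1 library called both genes in both genotypes.

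Pmaip1 was at 21.3 and 20.3 CPM with DMSO in TKO and at 129 and 111 with TSA, 5.78-fold higher (log2 fold change 2.53 ± 0.14 SE, edgeR adjusted p 1.22e-06). Bcl2l11 was at 36.9 and 34.4 CPM and at 133 and 132, 3.72-fold higher (1.90 ± 0.10 SE, edgeR adjusted p 8.21e-07). These were the largest TSA differences among the 10 members in TKO. Bmf moved less, from 41.3 and 38.2 CPM to 47.9 and 53.7 (0.35 ± 0.11 SE, edgeR adjusted p 0.0181), and its call was lost without TKO DMSO replicate 2 (edgeR adjusted p 0.125) and without TKO TSA replicate 2 (edgeR adjusted p 0.143). Bbc3 was at 23.9 and 25.2 CPM and 25.8 and 26.6, close together (0.09, 95% interval -0.17 to 0.35, edgeR adjusted p 0.516). Bid was at 60.8 and 58.0 CPM and 51.9 and 47.1, lower in both TSA libraries but not past the test (-0.26, 95% interval -0.54 to 0.01, edgeR adjusted p 0.0883), except with the replicate number as a block (edgeR adjusted p 0.0314).

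**Figure D2:**
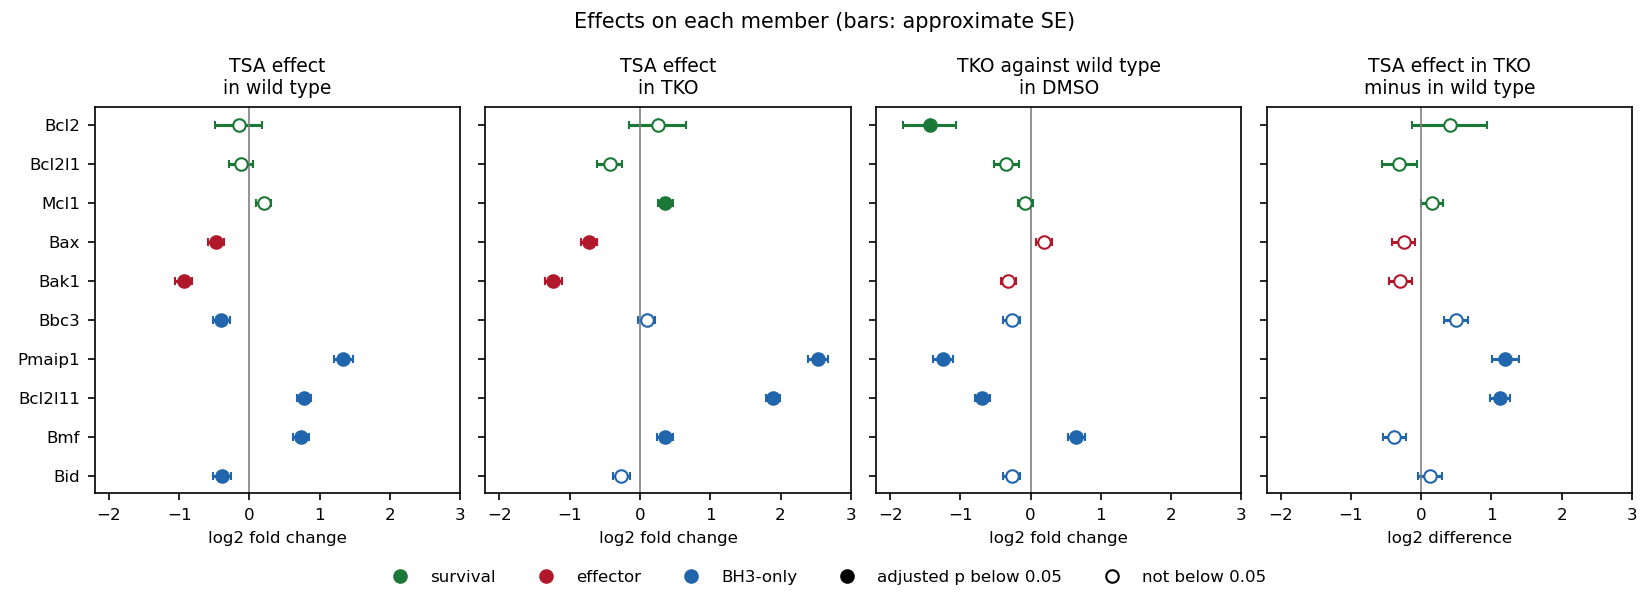
Log2 fold changes (x axis) of the 10 genes for TSA in wild type, TSA in TKO, TKO against wild type in DMSO, and the difference between the TSA effects; bars are approximate SE, colours mark the roles, and filled points have an edgeR adjusted p below 0.05. Pmaip1 and Bcl2l11 lie right of 0 in the TSA panels and in the panel of the difference, and left of 0 for TKO in DMSO, while Bax and Bak1 lie left of 0 in both TSA panels.

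A direct test was made of whether TSA acted differently in the 2 genotypes. Bcl2l11 and Pmaip1 had a larger rise in TKO, and no other member passed the test. The difference of the log2 fold changes was 1.12 ± 0.14 SE for Bcl2l11 (edgeR adjusted p 0.00615) and 1.19 ± 0.19 SE for Pmaip1 (edgeR adjusted p 0.0252). These are 2 of 10 members, beside 1.35% of all genes tested, 0.879% with a more positive and 0.468% with a more negative effect in TKO. Both calls were lost without TKO DMSO replicate 2 (edgeR adjusted p 0.0566 and 0.138), and that of Pmaip1 also without TKO DMSO replicate 1 (edgeR adjusted p 0.0699). In those fits a single library stood for TKO DMSO and was assumed to vary like the others, and the calls among all genes were 10 and 44 in place of 213. Leaving out each of the 8 libraries in turn, the difference ran from 1.03 to 1.21 for Bcl2l11 and from 0.99 to 1.38 for Pmaip1.

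For the other BH3-only genes the difference was 0.49, 95% interval 0.12 to 0.86, edgeR adjusted p 0.199 for Bbc3, -0.38, 95% interval -0.73 to -0.03, edgeR adjusted p 0.308 for Bmf and 0.12, 95% interval -0.26 to 0.51, edgeR adjusted p 0.813 for Bid. The effectors had differences of -0.25, 95% interval -0.60 to 0.11, edgeR adjusted p 0.532 for Bax and -0.30, 95% interval -0.66 to 0.06, edgeR adjusted p 0.448 for Bak1. For the survival genes it was 0.15, 95% interval -0.18 to 0.48, edgeR adjusted p 0.712 for Mcl1, -0.31, 95% interval -0.86 to 0.24, edgeR adjusted p 0.63 for Bcl2l1 and 0.40, 95% interval -0.76 to 1.56, edgeR adjusted p 0.798 for Bcl2. These intervals leave room for differences of moderate size in most members, and for Bcl2 in either direction.

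Loss of the methyltransferases without the inhibitor went with lower Pmaip1, Bcl2l11 and Bcl2 and with higher Bmf. In DMSO, TKO differed from wild type by -1.24 ± 0.14 SE, edgeR adjusted p 0.000247 on the log2 scale for Pmaip1, by -0.69 ± 0.10 SE, edgeR adjusted p 0.00101 for Bcl2l11 and by 0.65 ± 0.12 SE, edgeR adjusted p 0.00285 for Bmf. The libraries did not overlap for these genes, and the DMSO libraries also enter the TSA comparisons above. Bcl2, at low counts, differed by -1.43 ± 0.38 SE, edgeR adjusted p 0.0207. Its call was lost without wild type DMSO replicate 1 (edgeR adjusted p 0.144), TKO DMSO replicate 1 (edgeR adjusted p 0.0808) or TKO DMSO replicate 2 (edgeR adjusted p 0.131). The summed mesenchymal markers, mostly Tagln in wild type, were also lower in TKO, at 48.0 and 31.9 CPM against 469 and 242. Of the 11 tested, 6 were called lower and 1 higher. The endoderm markers were higher, at 37.8 and 39.7 CPM against 14.6 and 16.8, with 5 of 8 called higher and 0 lower. The part of either in these results was not tested. Called were 4 of 10 members, 1 higher and 3 lower, beside 20.4% of all genes tested, 9.63% higher and 10.7% lower. The members that did not pass were Bak1 (-0.32, 95% interval -0.56 to -0.07, edgeR adjusted p 0.0736), Bax (0.19, 95% interval -0.06 to 0.44, edgeR adjusted p 0.271) and Mcl1 (-0.08, 95% interval -0.31 to 0.16, edgeR adjusted p 0.666). Nor did Bcl2l1 (-0.35, 95% interval -0.73 to 0.04, edgeR adjusted p 0.196), Bbc3 (-0.27, 95% interval -0.53 to -0.01, edgeR adjusted p 0.141) or Bid (-0.27, 95% interval -0.54 to 0.00, edgeR adjusted p 0.154). With the replicate number as a block, Bak1 and Bcl2l1 were called (edgeR adjusted p 0.0343 and 0.0168), as they were without wild type DMSO replicate 2 (0.0271 and 0.0439).

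Under TSA the Pmaip1 libraries of the genotypes overlapped, at 130.3 and 118 CPM in wild type against 129 and 111 in TKO (-0.05, 95% interval -0.33 to 0.23, edgeR adjusted p 0.825). Bcl2l11 was higher in TKO by 1.35-fold (0.44 ± 0.10 SE, edgeR adjusted p 0.00982), Bak1 lower (-0.61 ± 0.12 SE, edgeR adjusted p 0.00549) and Bcl2l1 lower (-0.66 ± 0.18 SE, edgeR adjusted p 0.0253). These 3 of 10 members stand beside 18.4% of all genes tested, 10.0% higher and 8.38% lower. None of the 3 was called without TKO TSA replicate 2 (edgeR adjusted p 0.05004 for Bcl2l11, 0.0544 for Bak1 and 0.172 for Bcl2l1), and without wild type TSA replicate 1 the edgeR adjusted p was 0.0813 for Bcl2l11 and 0.210 for Bcl2l1. Bcl2 did not pass (-1.03, 95% interval -1.83 to -0.23, edgeR adjusted p 0.0721), though it did with no filter on low counts (edgeR adjusted p 0.0355) with the replicate block (0.00957) and without TKO TSA replicate 1 (0.0255). The remaining values were 0.27, 95% interval 0.03 to 0.52, edgeR adjusted p 0.114 for Bmf, 0.23, 95% interval -0.04 to 0.49, edgeR adjusted p 0.214 for Bbc3 and -0.14, 95% interval -0.42 to 0.13, edgeR adjusted p 0.459 for Bid. For Mcl1 the value was 0.08, 95% interval -0.16 to 0.31, edgeR adjusted p 0.658, and for Bax -0.06, 95% interval -0.31 to 0.19, edgeR adjusted p 0.764.

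Both changes at once, TKO with TSA set against wild type with DMSO, left 9 of 10 members called, beside 61.9% of all genes tested, 31.7% higher and 30.2% lower (by library totals 6064 and 3542 genes, in place of 5015 and 4778). Higher were Pmaip1 (2.44-fold, edgeR adjusted p 1.57e-05), Bcl2l11 (2.32-fold, edgeR adjusted p 3.63e-06), Bmf (2.01-fold, edgeR adjusted p 2.92e-05) and Mcl1 (1.22-fold, edgeR adjusted p 0.0378). Lower were Bak1 (2.93-fold, edgeR adjusted p 2.71e-06), Bcl2 (2.27-fold, edgeR adjusted p 0.015), Bcl2l1 (1.71-fold, edgeR adjusted p 0.00287), Bax (1.45-fold, edgeR adjusted p 0.00192) and Bid (1.45-fold, edgeR adjusted p 0.00318). Bbc3 was the member not called (-0.17, 95% interval -0.43 to 0.09, edgeR adjusted p 0.219). The Mcl1 call was lost without wild type DMSO replicate 1 (edgeR adjusted p 0.23), TKO DMSO replicate 1 (0.0557), TKO DMSO replicate 2 (0.0554) or TKO TSA replicate 1 (0.198). That of Bcl2 was lost without wild type DMSO replicate 1 (edgeR adjusted p 0.117) or TKO TSA replicate 2 (edgeR adjusted p 0.126).

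Ratios within a library do not depend on how libraries are scaled, and they are given as a description with no test. The log2 ratio of Bax to Bak1 RPKM was 2.36 ± 0.05 and 2.82 ± 0.06 in wild type without and with TSA, and 2.87 ± 0.05 and 3.38 ± 0.05 in TKO (SD, n = 2). Of the summed Bax and Bak1 RPKM, Bak1 made up 16.3% in wild type with DMSO, 12.4% with TSA alone, 12.1% with TKO alone and 8.76% with both. The log2 ratio of Bcl2l11 to Bcl2l1 RPKM was -2.05 ± 0.21 and -1.16 ± 0.28 in wild type, and -2.40 ± 0.10 and -0.07 ± 0.22 in TKO (SD, n = 2), where the TSA libraries lay on either side of 0. Among the 5 BH3-only members, Bid held the largest share of RPKM in DMSO (43.0% in wild type and 46.7% in TKO), and Pmaip1 in TSA (40.5% and 37.1%). Mcl1 held between 85.6% and 92.6% of the RPKM of the 3 survival members in the 4 groups.

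Sums were taken over the 10 members only, without other genes of the same roles. Summed BH3-only RPKM was 94.2 and 82.1 with DMSO and 122 and 109.6 with TSA in wild type, and 68.5 and 66.1 and 126 and 118 in TKO. Summed survival RPKM was 326 and 351 and 364 and 394 in wild type, and 328 and 298 and 403 and 359 in TKO. The log2 ratio of the former to the latter was -1.79 and -2.09 against -1.58 and -1.85 in wild type, so that those groups overlapped. In TKO it was -2.26 and -2.17 against -1.68 and -1.60, with no overlap. Summed effector RPKM was 289 and 234 and 188 and 171 in wild type, and 288 and 279.7 and 174 and 157 in TKO, lower in each of the 4 TSA libraries than in the 4 DMSO libraries.

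**Figure D3:**
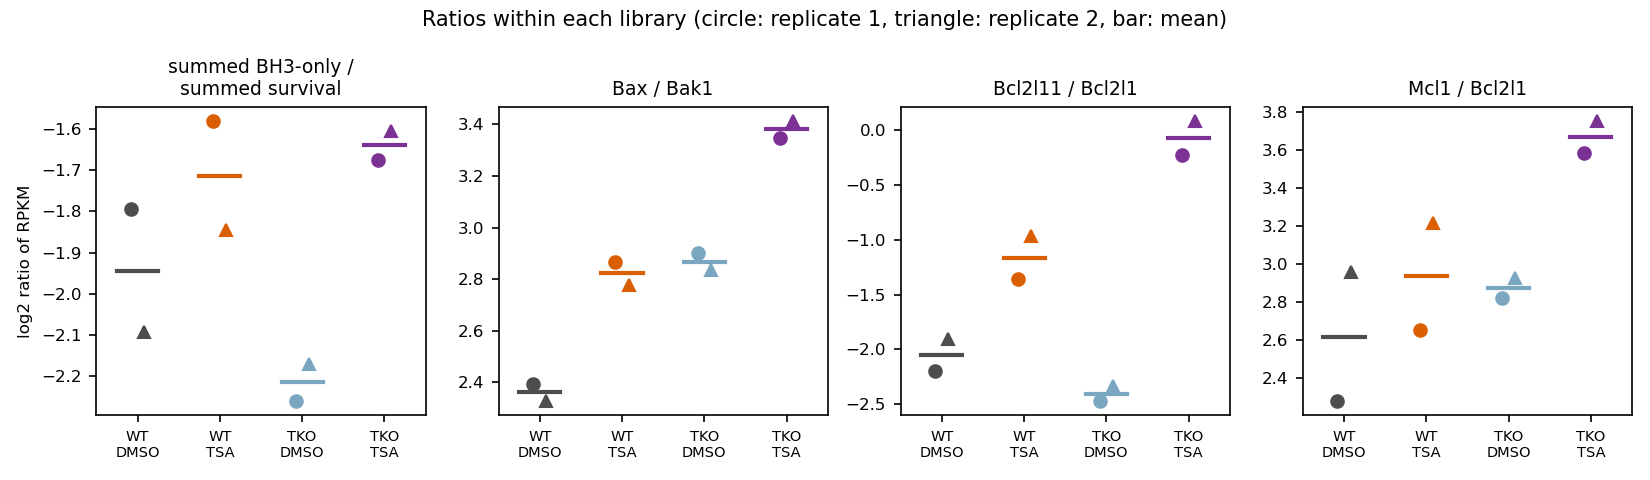
Log2 ratios of RPKM within each library (y axes do not start at 0) for summed BH3-only to summed survival genes, Bax to Bak1, Bcl2l11 to Bcl2l1 and Mcl1 to Bcl2l1; circles are replicate 1, triangles replicate 2 and bars group means. The mean Bax to Bak1 ratio runs from 2.36 in wild type with DMSO to 3.38 in TKO with TSA. The wild type groups overlap for the first and the last ratio.

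The rest of the family and its pathway was followed in 7 further lists, by TMM, with counts by library totals alone beside them. Of 14 other Bcl2 family genes 10 were tested, and 1 rose and 5 fell with TSA in each genotype (1 and 3 by library totals). The TMM counts of this and the lists that follow stand beside 52.8% of all genes called in wild type (27.0% higher, 25.9% lower). In TKO that share was 58.7% (30.8% higher, 27.9% lower), and 6 of 10 is near that background. The counts by library totals stand beside 5812 genes higher and 2433 lower of 15822 in wild type. In TKO these were 5908 and 3267. The median log2 fold change of these 10 by TMM was -0.30 in wild type and -0.25 in TKO, beside 0.01 and 0.04 over all genes tested. Bok, an effector-like relative of Bax, fell in both genotypes (-1.17 ± 0.22 SE in wild type and -0.66 ± 0.22 SE in TKO, edgeR adjusted p 0.00119 and 0.0234), and by library totals its value in TKO was -0.51 (edgeR adjusted p 0.0639). Hrk, a BH3-only gene, was at 2.50 and 4.38 CPM with DMSO and 1.65 and 1.56 with TSA in wild type, and at 3.35 and 6.40 and 1.22 and 1.19 in TKO. It fell in both (-1.08 ± 0.40 SE in wild type and -2.01 ± 0.40 SE in TKO, edgeR adjusted p 0.0385 and 0.00133), and its wild type call was lost by library totals (edgeR adjusted p 0.0853) and by DESeq2 (adjusted p 0.0675). Bnip3, a hypoxia-induced mitophagy gene with a BH3-like stretch, fell as well (-1.04 ± 0.23 SE in wild type and -1.03 ± 0.22 SE in TKO, edgeR adjusted p 0.00324 and 0.00228). Its relative Bnip3l rose in wild type (0.37 ± 0.11 SE, edgeR adjusted p 0.0126), with -0.06 in TKO (edgeR adjusted p 0.654). Bcl2l14 rose in TKO (0.68 ± 0.24 SE, edgeR adjusted p 0.027; DESeq2 adjusted p 0.0633), with 0.08 in wild type (edgeR adjusted p 0.796). Bcl2l2, a survival gene outside the 10 members, was at 25.8 and 24.8 CPM with DMSO and 16.7 and 18.3 with TSA in wild type. It fell there (-0.54 ± 0.17 SE, edgeR adjusted p 0.023), a call not checked under other settings. In TKO it was at 17.0 and 19.4 CPM with DMSO and 9.47 and 13.8 with TSA. Bcl2a1a, Bcl2a1b and Bcl2a1d, near-identical copies that counting may split, were at 0 in every library.

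Downstream of mitochondria, all 12 listed caspase and apoptosome genes were tested. In wild type 5 rose and 3 fell, and in TKO 7 rose and 2 fell, with medians of 0.09 and 0.43 (by library totals 6 and 3, and 8 and 2). Of all genes, by TMM 27.0% rose and 25.9% fell in wild type, and 30.8% and 27.9% in TKO. Casp2, an initiator-type caspase, fell (-0.57 ± 0.11 SE in wild type and -0.56 ± 0.11 SE in TKO, edgeR adjusted p 0.0018 and 0.00167). Casp6, which cleaves lamins, rose (0.73 ± 0.23 SE in wild type and 1.01 ± 0.22 SE in TKO, edgeR adjusted p 0.018 and 0.00245), and so did Casp8, the initiator caspase of death receptors (0.63 ± 0.21 SE in wild type and 1.24 ± 0.23 SE in TKO, edgeR adjusted p 0.0246 and 0.000799). Cycs, which encodes cytochrome c and has processed copies in the genome that make its counts uncertain, rose (0.66 ± 0.19 SE in wild type and 0.53 ± 0.18 SE in TKO, edgeR adjusted p 0.0116 and 0.0248). Endog, a mitochondrial nuclease, rose too (0.79 ± 0.13 SE in wild type and 1.17 ± 0.12 SE in TKO, edgeR adjusted p 0.000471 and 1.94e-05), and 36.7% of its exonic sequence overlaps a gene of the opposite strand, whose reads may be mixed in.

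Caspase inhibitors were followed as a list of 6, all tested. Of these, 4 fell with TSA in wild type and 5 in TKO, and none rose, with medians of -0.37 and -0.45 (by library totals 1 and 3 fell). Of all genes, 25.9% fell in wild type and 27.9% in TKO by TMM, and 2433 and 3267 of 15822 by library totals. Cflar, whose protein FLIP restrains caspase 8, was at 37.0 and 30.9 CPM and 16.4 and 12.1 in wild type, and at 17.9 and 13.3 and 6.02 and 4.65 in TKO. It fell without overlap of the groups (-1.25 ± 0.20 SE in wild type and -1.55 ± 0.23 SE in TKO, edgeR adjusted p 0.000471 and 0.000171). Xiap, which binds and inhibits caspases, fell (-0.39 ± 0.11 SE in wild type and -0.50 ± 0.11 SE in TKO, edgeR adjusted p 0.0116 and 0.00257), though its wild type call was lost by library totals (-0.19, edgeR adjusted p 0.155). Birc5, named survivin and needed for cell division, fell (-0.38 ± 0.09 SE in wild type and -0.39 ± 0.09 SE in TKO, edgeR adjusted p 0.0033 and 0.00234), but not by library totals in wild type (edgeR adjusted p 0.0903). Birc3 fell in TKO (-0.63 ± 0.22 SE, edgeR adjusted p 0.0297; by library totals 0.0876), with -0.36 in wild type (edgeR adjusted p 0.19).

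Of 9 death receptor genes 7 were tested, and 2 rose and 1 fell in each genotype (by library totals 3 and 0 in wild type), with medians of 0.26 and -0.09. These 3 of 7 stand beside the 52.8% and 58.7% called among all genes, and with so few genes the shares cannot be told apart. Fas, which encodes the receptor of the Fas ligand, was at 1.78 and 1.38 CPM and 5.56 and 5.91 in wild type, and at 0.753 and 0.437 and 2.84 and 2.83 in TKO. It rose from these low levels in both (1.85 ± 0.29 SE in wild type and 2.23 ± 0.36 SE in TKO, edgeR adjusted p 0.000421 and 0.000324). Tradd, an adaptor of the tumour necrosis factor receptor, rose (0.74 ± 0.20 SE in wild type and 0.58 ± 0.20 SE in TKO, edgeR adjusted p 0.00917 and 0.0304). Ripk1, a kinase of the same complex, fell (-0.40 ± 0.12 SE in wild type and -0.78 ± 0.12 SE in TKO, edgeR adjusted p 0.0155 and 0.000226), and its wild type call was lost by library totals (-0.20, edgeR adjusted p 0.182).

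Among 8 genes for binding partners and ubiquitin enzymes, 1 rose and 5 fell in wild type, and 2 rose and 4 fell in TKO, with medians of -0.29 and -0.21. By library totals these counts were 2 and 1, and 3 and 2, and among all genes 52.8% and 58.7% were called by TMM. Vdac1, a channel of the mitochondrial outer membrane, fell (-0.82 ± 0.10 SE in wild type and -0.67 ± 0.10 SE in TKO, edgeR adjusted p 9.07e-05 and 0.000194). Vdac3, a related channel, fell by TMM (-0.32 ± 0.12 SE in wild type and -0.41 ± 0.12 SE in TKO, edgeR adjusted p 0.0376 and 0.0106) but not by library totals (edgeR adjusted p 0.405 and 0.0634). Usp9x, which removes ubiquitin from MCL1, fell (-0.35 ± 0.10 SE in wild type and -0.54 ± 0.10 SE in TKO, edgeR adjusted p 0.0149 and 0.00108), though not by library totals in wild type (edgeR adjusted p 0.227). Fbxw7, part of a ligase that marks MCL1 for destruction, rose (0.36 ± 0.11 SE in wild type and 0.36 ± 0.10 SE in TKO, edgeR adjusted p 0.0134 and 0.0121). Dynll2, a dynein light chain that binds BMF, rose in TKO (0.51 ± 0.12 SE, edgeR adjusted p 0.00435), with 0.12 in wild type (edgeR adjusted p 0.426).

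Of 15 p53 pathway genes 6 rose and 3 fell with TSA in each genotype (by library totals 8 and 1 in wild type, and 8 and 3 in TKO), with medians of 0.26 and 0.15. These 9 of 15 are near the 52.8% and 58.7% called among all genes. Trp53 itself, which encodes p53, was at 268 and 241 CPM and 152 and 143 in wild type, and at 281 and 279 and 157 and 150.1 in TKO. It fell in both (-0.79 ± 0.09 SE in wild type and -0.87 ± 0.09 SE in TKO, edgeR adjusted p 6.54e-05 and 1.94e-05). Mdm2, its ubiquitin ligase and target, rose (0.83 ± 0.13 SE in wild type and 0.88 ± 0.13 SE in TKO, edgeR adjusted p 0.000423 and 0.000198). The p53 targets Trp53inp1 (0.95 ± 0.12 SE in wild type and 1.01 ± 0.12 SE in TKO, edgeR adjusted p 8.79e-05 and 3.41e-05) and Btg2 (0.88 ± 0.11 SE in wild type and 1.40 ± 0.11 SE in TKO, edgeR adjusted p 0.000107 and 4.66e-06) rose too. Perp, a membrane protein gene, rose (0.62 ± 0.16 SE in wild type and 1.46 ± 0.17 SE in TKO, edgeR adjusted p 0.00868 and 4.41e-05), as did Cdkn1a, which encodes the cell cycle inhibitor p21 (0.77 ± 0.14 SE in wild type and 1.04 ± 0.14 SE in TKO, edgeR adjusted p 0.000908 and 8.11e-05). Eda2r fell (-0.45 ± 0.11 SE in wild type and -0.77 ± 0.11 SE in TKO, edgeR adjusted p 0.00622 and 0.000189), and so did Mdm4, an inhibitor of p53 (-0.24 ± 0.09 SE in wild type and -0.45 ± 0.09 SE in TKO, edgeR adjusted p 0.0484 and 0.00166), but in wild type neither call held by library totals (edgeR adjusted p 0.0678 and 0.752). That of Mdm4 was also lost by the upper quartile (edgeR adjusted p 0.435), by DESeq2 size factors (0.0626), with no filter (0.0592) and by DESeq2 (adjusted p 0.0994). Bbc3 and Pmaip1, which p53 is known to induce, had -0.40 and 1.34 in wild type and 0.09 and 2.53 in TKO beside these genes. The Bbc3 value in TKO did not pass the test, and its wild type call rests on the scaling, as given above.

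Other regulators of BH3-only genes numbered 8, of which 0 rose and 3 fell in wild type and 1 rose and 4 fell in TKO (by library totals 1 and 2 in TKO), with medians of -0.51 and -0.43, beside 52.8% and 58.7% of all genes called. Atf4, a transcription factor of the integrated stress response, fell (-1.48 ± 0.19 SE in wild type and -0.55 ± 0.19 SE in TKO, edgeR adjusted p 0.000115 and 0.0257). Trib3, a target of ATF4, fell as well (-1.57 ± 0.25 SE in wild type and -0.73 ± 0.24 SE in TKO, edgeR adjusted p 0.000411 and 0.024). In TKO both calls were lost by library totals (edgeR adjusted p 0.0838 and 0.0611). Myc, a growth regulator that also sensitises cells to apoptosis, fell (-1.27 ± 0.20 SE in wild type and -1.09 ± 0.21 SE in TKO, edgeR adjusted p 0.000406 and 0.000931). Trp73, a relative of p53, fell in TKO (-1.04 ± 0.26 SE, edgeR adjusted p 0.00549), with -0.43 in wild type (edgeR adjusted p 0.22). Foxo1, a factor that can induce Bcl2l11, rose in TKO (0.38 ± 0.13 SE, edgeR adjusted p 0.0276; 0.05014 with no filter on low counts), with 0.09 in wild type (edgeR adjusted p 0.567).

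**Figure D4:**
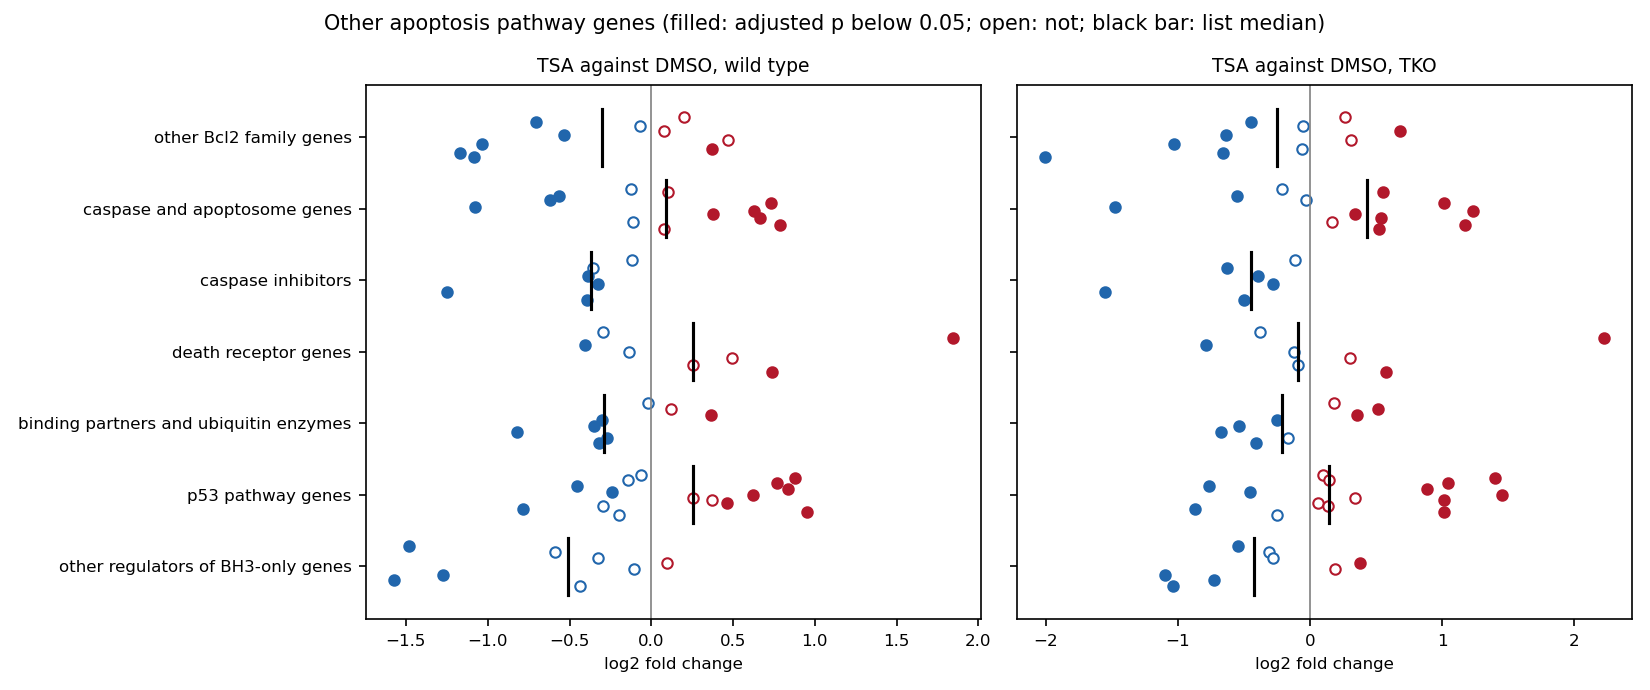
Log2 fold change with TSA (x axis) of each tested gene of the 7 lists, in wild type and in TKO (the x axes differ in range); filled points have an edgeR adjusted p below 0.05, open points do not, and black bars are list medians. By TMM the caspase inhibitors lie left of 0 in both genotypes, with medians of -0.37 and -0.45, and Fas is the rightmost point of each panel.

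The genes whose levels moved most like 3 of the members were sought over the 8 libraries among 14421 genes, by the root mean square difference of log2 CPM after centring each gene. For Bcl2l11 they were Nxpe3 (0.10), Ssbp2 (0.12) and Nol4 (0.13), and for Bmf they were Slc9a7 (0.08), B4galt5 (0.09) and Rogdi (0.09). The nearest genes to Bcl2 were farther off, namely Sema3b, Amotl1 and Bcar1 at 0.18 each. Bcl2 had only 23 to 89 counts per library, and the part of counting error in its distances was not tested. These are descriptions of 8 libraries in 4 groups.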

How the data were processed

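RNA was measured in 8 libraries, depleted of ribosomal RNA and made with a strand-directional kit per the labels' protocols. The authors deposited raw read counts per gene, with exon positions and lengths in bases. The submitters' processing notes name TopHat2 2.0.13, featureCounts 1.4.5-p1, edgeR 3.22.3 and mm10 without their roles; the annotation, and whether counting used the strand, are not given in the sources used here. No member shares exon bases with another gene in the table.

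edgeR 4.0.16 under R 4.3.3 was used on the counts, with filterByExpr (15822 genes kept), TMM scaling and 1 quasi-likelihood model of 4 group means on 8 libraries (4 residual degrees of freedom). P-values are two-sided and Benjamini-Hochberg adjusted over all genes tested. SE and 95% intervals derive from the F statistic and are approximate. An exact permutation test of 2 against 2 libraries cannot go below 0.333. A floor of 3 counts is 0.193 to 0.226 CPM, for counting error only. Replicates differed beyond sampling noise (chi-square per degree of freedom 4.54 to 10.3). CPM and RPKM were computed here from TMM-scaled counts. The script was tested on simulated data.

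The members and lists were chosen with earlier results of these data known. From each list and TSA comparison, the genes named are at most the 3 called genes with the largest increase and the 3 with the largest decrease, among those averaging 1 CPM or more whose groups do not overlap; their values in the other genotype stand beside them. Some genes that this rule names are not reported here. Bcl2a1a, Bcl2a1b, Bcl2a1d, Bcl2l2, Dcn, Tfap2c, Krt7, Tubb3 and Map2 were chosen after their values were seen. Alternatives were 3 other scalings, no filter, DESeq2 1.42.0, robust fitting, a replicate block and leaving out each library.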

Additional observations from a re-analysis of the deposited data

Results flagged for a closer look

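TSA acted differently in the 2 genotypes on 2 members. Its log2 fold change in TKO exceeded that in wild type by 1.12 for Bcl2l11 and by 1.19 for Pmaip1, each past the interaction test of edgeR (adjusted p 0.00615 and 0.0252). Both genes were lowest in the DMSO libraries of TKO, at 36.9 and 34.4 CPM for Bcl2l11 and 21.3 and 20.3 for Pmaip1. With TSA the Pmaip1 libraries of the genotypes overlapped, at 130.3 and 118 CPM in wild type against 129 and 111 in TKO. Both calls were lost without TKO DMSO replicate 2.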

How the results depend on the processing

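Numbers of called members were within 1.5 times of those reported under the 3 other scalings, no filter, DESeq2, robust fitting and the replicate block. Leaving out 1 library gave 5 to 7 called members for TSA in wild type, 4 to 7 for TSA in TKO, 3 to 6 for TKO in DMSO, 0 to 4 for TKO in TSA, 7 to 9 for both changes at once and 0 to 2 for the difference of TSA effects. Over all genes, that difference was called for 213, for 488 with no filter, 401 by DESeq2, 633 with the block, and 10 to 410 without 1 library. Without 1 library, calls for TKO in DMSO could fall from 3221 to 1458, and for TKO in TSA from 2910 to 941.

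The titles share replicate numbers without saying what they mark, and deviations of same-numbered libraries correlated across genes at 0.0586 to 0.366. With the replicate number as a block, 7, 8, 6, 4, 9 and 2 members were called in the order above. Calls over all 15822 genes rose as well, to 9256, 10039, 4217, 4097, 10413 and 633 in the same order. The block changed no other member's call than those given in the report.

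By library totals, TSA in wild type was turned to 0.0478 for Bcl2 and 0.0836 for Bcl2l1, and by the upper quartile to 0.0328 for Bcl2l1. Leaving out 1 library turned the sign only of values that had not passed the test. Over those fits TSA in wild type ran from -0.4419 to 0.1631 for Bcl2 and -0.3425 to 0.1397 for Bcl2l1, and TSA in TKO from -0.3993 to 0.7061 for Bcl2. TKO in DMSO ran from -0.1901 to 0.0265 for Mcl1, and TKO in TSA from -0.0119 to 0.1705 for Mcl1, -0.1331 to 0.0163 for Bax, -0.1637 to 0.0599 for Pmaip1 and -0.2994 to 0.0338 for Bid. The difference of TSA effects ran from -0.2414 to 0.8633 for Bcl2 and -0.0314 to 0.3018 for Bid. The cause was not tested. Bcl2, at 23 to 89 counts per library, had the widest intervals. Of the calls of genes named from lists, 20 of 32 in wild type and 25 of 35 in TKO held whichever library was left out, and none changed sign. Those lost at least once were Bnip3l, Casp6, Casp8, Cycs, Fbxw7, Hrk, Mdm4, Ripk1, Tradd, Usp9x, Vdac3 and Xiap in wild type, and Atf4, Bcl2l14, Birc3, Bok, Cycs, Fbxw7, Foxo1, Tradd, Trib3 and Vdac3 in TKO; alternatives for these genes were chosen after seeing the data.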
